A study of Mus musculus with 9 samples.

Results

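This account covers 34 genes of smooth muscle contraction in the mouse large intestine, followed array by array over 9 arrays. They were chosen by name, as genes of the contractile apparatus of smooth muscle, its anchoring, its control and its transcription, and each was found through its Entrez Gene number. All 34 had a row among the 24011 genes named here, and all 34 passed the filter on low levels that left 16808 genes for testing. All mice were C57BL/6, carried a short hairpin RNA together with rtTA (the doxycycline-dependent activator), and drank doxycycline at 1 mg/ml with 5% sucrose for 14 days from 4 weeks of age. The hairpin was DHX9.837 (group DHX9-837, 3 arrays) or DHX9.1271 (group DHX9-1271, 3 arrays), both directed at the RNA and DNA helicase gene Dhx9, or FLuc.1309 (control, 3 arrays), directed at firefly luciferase, which mice do not have. The sources used here do not name the promoter that drives rtTA, nor say whether each hairpin came from 1 founder line. Values are log2 expression levels, so a difference of 1 is a 2-fold change, and a difference of a gene between groups is called when its adjusted p is under 0.05. The labels do not say that replicates came from separate animals, so the p-values measure the spread between these arrays. Dhx9 averaged 8.20 ± 0.017 in DHX9-837 arrays, 8.22 ± 0.044 in DHX9-1271 arrays and 9.24 ± 0.072 in control arrays (SD, n = 3 each), and it was lower in every hairpin array than in every control array (log2 fold -1.02 with both hairpins, adjusted p = 1.28e-05). The arrays had medians of 6.24 to 6.28 over all probe sets, and their number limits the precision.

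Smooth muscle of the gut wall contracts when myosin filaments pull on actin filaments, which are tied through dense bodies to the intermediate filament network and to the cell membrane. Acetylcholine from enteric neurons acts on muscarinic receptors, calcium enters, and a calcium-dependent kinase phosphorylates the myosin light chain. Much of the gene program is switched on by serum response factor together with its co-activator myocardin, which act through a DNA element named the CArG box. The large intestine is a mixed tissue that holds epithelium, muscle, connective tissue, nerves and vessels. The defining muscle genes Acta2, Actg2, Myh11, Cnn1 and Des had mean levels between the 98.7 and 99.7 percentiles of the genes tested. Other genes of the list were lower, down to the 20.3 percentile for Chrm3. Ldb3 and Hspb7, called lower in comparisons below, were at the 46.6 and 52.6 percentiles. In bulk tissue, fewer muscle cells and less RNA per muscle cell cannot be told apart.

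The start-site windows of 4 of these genes are shown because each holds a CArG box or a close relative of one. Synm and Ldb3 were called in comparisons below, and Acta2 and Myl9, which were not, are the genes with 2 such stretches. The windows run from 250 bases before to 50 bases after the annotated start, read 5′ to 3′ on the gene's strand, and come from RefSeq (build GRCm38.p6). Capitals mark each 10-base stretch that opens with CC, ends with GG and has between them 6 letters that are all A or T (the CArG box) or A or T with a single C or G. The Acta2 window is at chr19:34255324-34255623 (minus strand), that of Myl9 at chr2:156775214-156775513 (plus strand), that of Synm at chr7:67759693-67759992 (minus strand) and that of Ldb3 at chr14:34588632-34588931 (minus strand).
Acta2: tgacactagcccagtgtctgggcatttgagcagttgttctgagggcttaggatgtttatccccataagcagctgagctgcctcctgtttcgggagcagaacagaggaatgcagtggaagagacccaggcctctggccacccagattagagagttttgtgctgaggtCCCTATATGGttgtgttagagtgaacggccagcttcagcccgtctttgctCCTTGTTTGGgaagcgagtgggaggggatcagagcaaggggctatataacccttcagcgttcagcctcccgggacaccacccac
Myl9: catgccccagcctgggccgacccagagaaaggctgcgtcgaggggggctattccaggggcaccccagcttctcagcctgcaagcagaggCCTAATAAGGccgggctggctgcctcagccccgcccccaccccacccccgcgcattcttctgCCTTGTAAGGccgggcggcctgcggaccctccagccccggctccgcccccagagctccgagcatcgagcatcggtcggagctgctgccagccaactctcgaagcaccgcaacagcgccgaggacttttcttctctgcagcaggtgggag
Synm: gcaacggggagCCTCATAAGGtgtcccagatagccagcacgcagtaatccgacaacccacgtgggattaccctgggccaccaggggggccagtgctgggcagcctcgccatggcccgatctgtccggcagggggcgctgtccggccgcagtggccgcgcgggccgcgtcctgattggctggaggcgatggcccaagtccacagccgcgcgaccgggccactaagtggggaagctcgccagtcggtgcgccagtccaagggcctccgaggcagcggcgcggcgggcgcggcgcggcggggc
Ldb3: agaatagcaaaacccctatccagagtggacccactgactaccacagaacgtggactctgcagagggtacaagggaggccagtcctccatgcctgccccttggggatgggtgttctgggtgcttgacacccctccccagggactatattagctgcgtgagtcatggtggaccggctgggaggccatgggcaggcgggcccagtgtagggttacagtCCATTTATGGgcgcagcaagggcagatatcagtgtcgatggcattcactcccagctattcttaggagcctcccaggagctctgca
Acta2 had 2 stretches with 1 C or G in the core, starting 84 and 34 bases before the start site. Myl9 had a CArG box 161 bases before the start and a second stretch, with 1 G in the core, 99 bases before it. Ldb3 had a CArG box 35 bases before the start, and the same box lay 109 bases before another annotated start. The single stretch of Synm, with a C in the core, began 239 bases before its start.

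Of the 34 genes, 29 were matched to a window by symbol and 5 (Actg2, Myh11, Tagln, Myocd and Foxf1) were not. A CArG box was found in 2 of the 29 (6.90%), Myl9 and Ldb3, against 1.81% of all 27025 genes with a window. With 1 C or G allowed in the core, 6 of the 29 (20.7%) had a match, against 11.3% of all genes. Pdlim3 and Hspb6 were the others. The pattern reads the same on both strands, so 1 search covers both, and the looser pattern includes the strict one. A match is a string of letters only, and sites outside these windows were not searched.

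**Figure D1:**
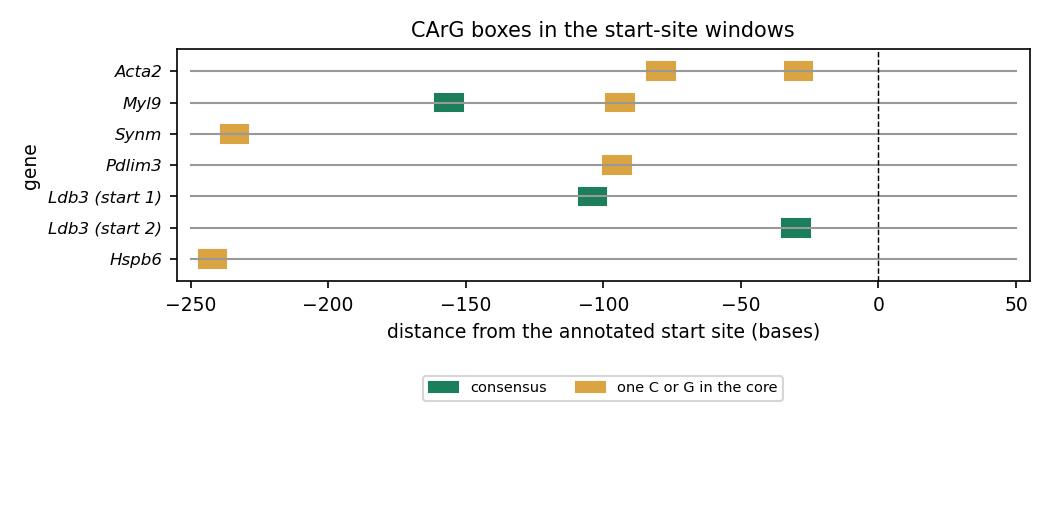
Positions of CArG boxes (green) and of stretches with 1 C or G in the core (gold) in the start-site windows of the 6 contractile genes that have either. The horizontal axis is the distance from the annotated start site in bases, each grey line is 1 window, and Ldb3 has 2 annotated starts. Acta2 and Myl9 are the genes with 2 stretches in 1 window.

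Levels of the contractile genes varied together from array to array, within each group as well as between groups. In DHX9-837, replicate 3 held the lowest level of the group for 25 of the 34 genes (73.5%), against 31.9% of all genes tested. In the DHX9-1271 group, replicate 2 held the highest level for 27 of 34 (79.4%, against 35.5% of all genes). Among controls, replicate 2 was highest for 29 of 34 (85.3%, against 28.7% of all genes) and replicate 1 lowest for 30 of 34 (88.2%, against 37.8%). Replicate 1 was lowest of the DHX9-1271 arrays for 25 of 34 (73.5%, against 37.6%), and replicate 2 highest of the DHX9-837 arrays for 25 of 34 (73.5%, against 35.0%). A tie was counted for the first array, here and in the shares of all genes. The lowest counts of replicate 1 thus include Mylk, Kcnmb1 and Rbpms2 in DHX9-1271 and Ppp1r12b in control, each tied with replicate 3. Replicate 2 thus held the highest level for most of these genes in all 3 groups. These counts describe the arrays, and genes of 1 list in 1 array are not independent of each other.

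Averaged over the 34 genes, each set relative to its own mean over the 9 arrays, the log2 deviation was -0.068, -0.011 and -0.16 in the DHX9-837 arrays, 0.0033, 0.11 and 0.041 in the DHX9-1271 arrays and -0.053, 0.10 and 0.035 in the control arrays. The group averages were -0.078 ± 0.073 in DHX9-837, 0.051 ± 0.053 in DHX9-1271 and 0.028 ± 0.078 in control (SD, n = 3 each). The 3 groups overlapped, except that every DHX9-837 array lay below every DHX9-1271 array. Of the 34 genes, 21 had their lowest level of all 9 arrays in DHX9-837 replicate 3 and 20 had their highest in DHX9-1271 replicate 2. The median deviation over all genes tested was between -0.0045 and 0.0063 in every array.

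**Figure D2:**
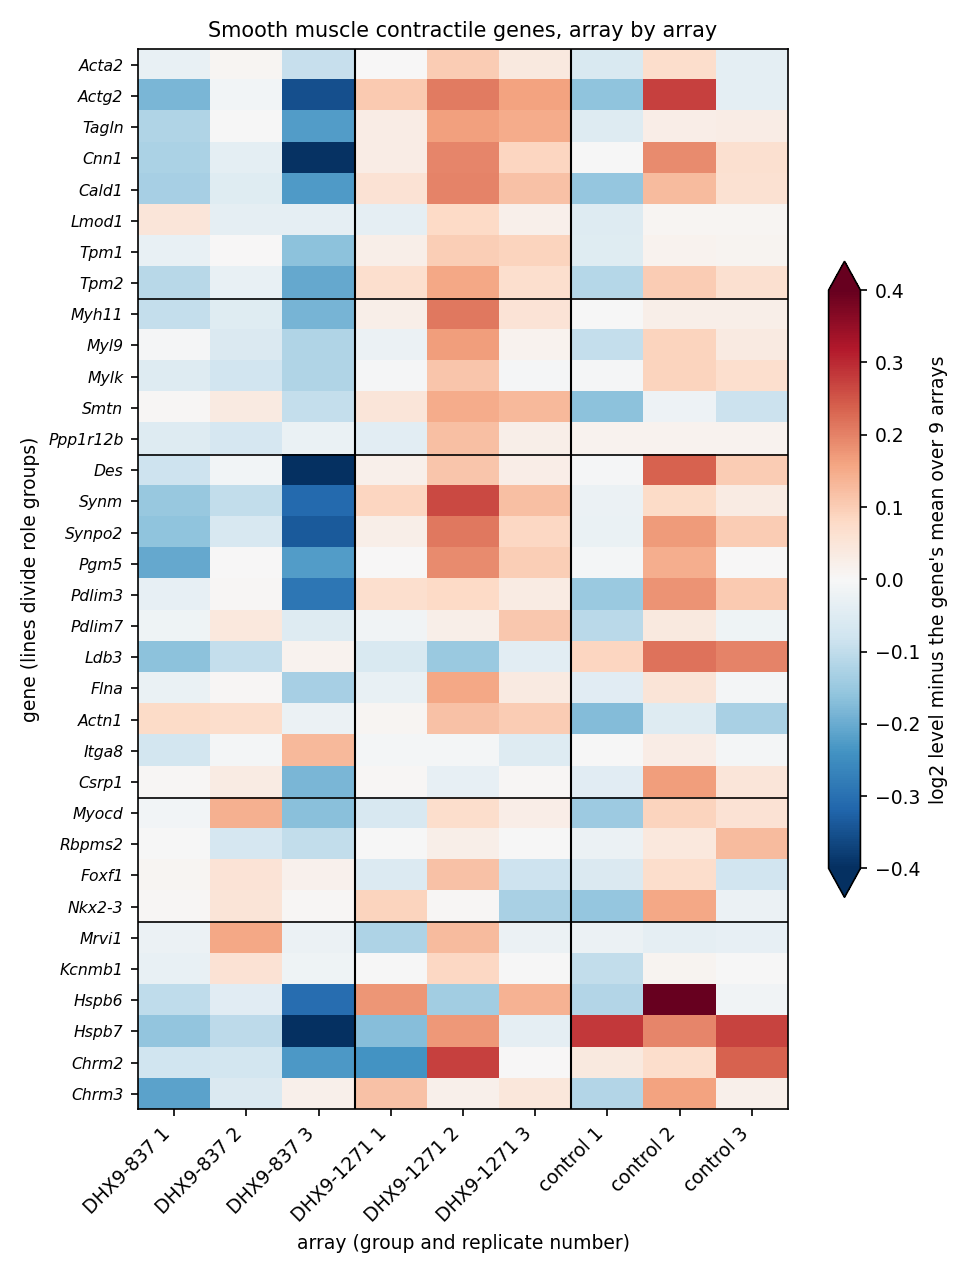
Log2 level of each of the 34 genes (rows, in 5 role groups divided by lines) in each of the 9 arrays (columns), minus the gene's own mean over the arrays; red is higher and blue lower. Most rows are blue in DHX9-837 replicate 3, where 29 of 34 genes lay below their own mean, and red in DHX9-1271 replicate 2 and control replicate 2, where 30 and 31 lay above it.

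**Figure D3:**
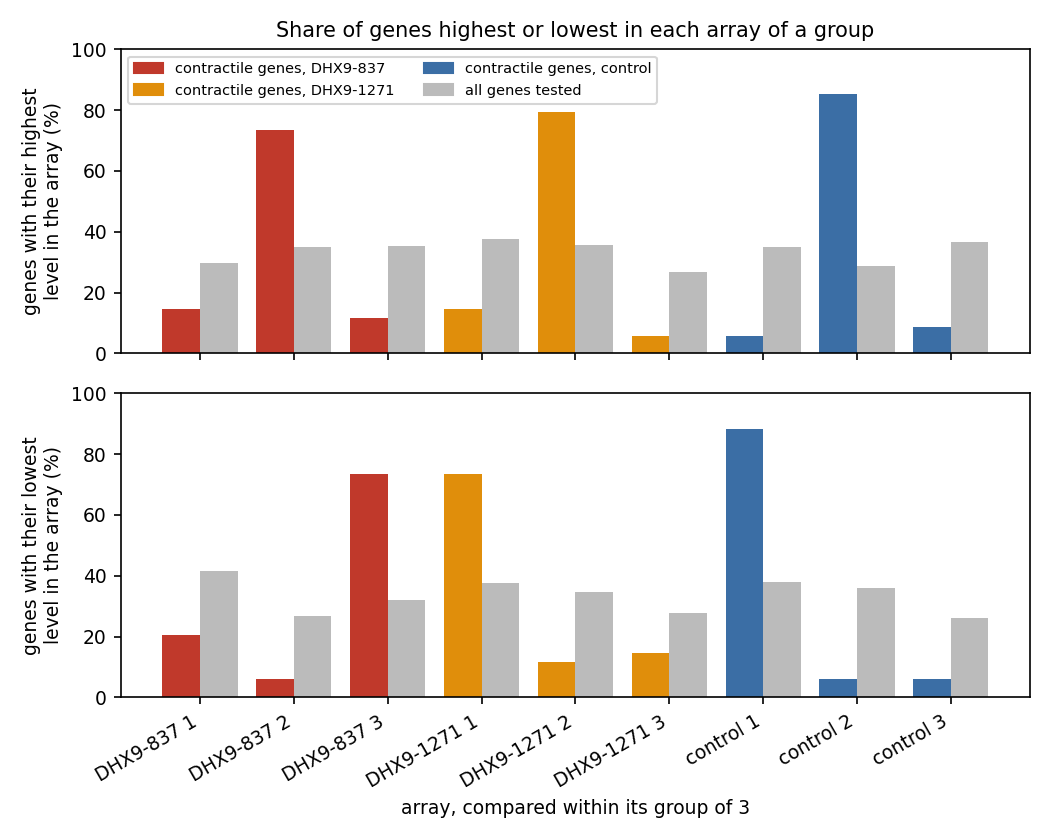
For each array, the percent of the 34 contractile genes (coloured bars) and of all 16808 genes tested (grey bars) that had their highest level (top) or lowest level (bottom) of the group's 3 arrays in it. The coloured bars reach 73.5% to 88.2% in 1 array per group and panel, whereas the grey bars stay between 26.1% and 41.4%.

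The genes differed in how closely they followed this shared pattern. The Pearson correlation over the 9 arrays between a gene and the mean of the other 33 was at least 0.8 for 16 of 34 genes (47.1%). For genes outside the list, the correlation with the mean of the 34 reached 0.8 in 101 of 16774 (0.602%). Closest were Synpo2 (0.97), which encodes the actin-bundling protein synaptopodin 2, Tpm2 (0.96), Cnn1 (0.96) and Cald1 (0.95). Lowest over the 9 arrays were Itga8 (-0.41), Ldb3 (0.13), Actn1 (0.16) and Mrvi1 (0.18), but this order rested on few arrays. Without the 2 arrays farthest from the median, the values were 0.54 for Itga8, 0.60 for Ldb3, -0.10 for Actn1 and -0.20 for Mrvi1. With group means removed, Actn1 followed the others (0.90) and so did Smtn (0.96, against 0.54 with the groups left in), while Itga8 was at -0.36 and Ldb3 at -0.16. These correlations share 9 arrays and are descriptions only. The 10 named genes outside the list with the most similar profile (correlation 0.91 to 0.96) were Fermt1, Shank1, Mob1b, Dpp8, Nodal, Cuedc1, Sh2d7, Klk1b5, Nrd1 and Itga1. None of them stood in the lists of muscle, nerve, vessel or connective tissue genes used here.

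Against control, few contractile genes were called with either hairpin. The share called in either direction was below that of all genes in each comparison with control, but with 34 genes these gaps amount to a few genes. With DHX9-837, 2 of 34 (5.88%) were called, both lower, against 15.6% of all genes called in either direction, 8.67% called higher and 6.91% called lower. At an unadjusted p under 0.05 there were 9 (26.5%, against 30.1% of all genes). With DHX9-1271, 0 of 34 were called by limma (4 at an unadjusted p under 0.05), against 4.41% of all genes, 2.83% higher and 1.58% lower (20.5% at an unadjusted p under 0.05). With both hairpins in 1 group, 3 of 34 (8.82%) were called, 1 higher and 2 lower, against 13.5% of all genes (8.13% higher and 5.33% lower). Between the hairpins, DHX9-837 against DHX9-1271, 1 of 34 (2.94%) was called, lower, against 1.9% of all genes, 0.696% higher and 1.21% lower. At an unadjusted p under 0.05 there were 10 between the hairpins (29.4%, against 14.3% of all genes) and 4 with both (11.8%, against 29%). The groups did not overlap for 11 genes with DHX9-837, 10 below control (29.4%, against 14.3% of all genes) and 1 above (2.94%, against 17.1%). With DHX9-1271, 5 genes lay wholly above control (14.7%, against 15.4% of all genes) and 2 wholly below (5.88%, against 10%). For both hairpins 1 gene lay wholly above control (2.94%, against 10.7%) and 2 wholly below (5.88%, against 6.73%). DHX9-837 arrays lay wholly below DHX9-1271 arrays for 13 genes (38.2%, against 12.6% of all genes) and wholly above for 0 (against 9.37%). The median log2 fold of the 34 genes was -0.11 with DHX9-837, 0.029 with DHX9-1271 and -0.022 with both, where all genes tested had -0.0012, 0.0057 and 0.0011. The log2 fold was below 0 for 25 of the 34 with DHX9-837 (73.5%, against 50.3% of all genes), 10 with DHX9-1271 (29.4%, against 48.2%) and 23 with both (67.6%, against 49.6%). Between hairpins the median was -0.12, with 29 of 34 genes lower in DHX9-837, against -0.0040 for all genes, of which 51.7% were lower. Without DHX9-837 replicate 3 and control replicate 1 (lowest of their own groups for 25 and 30 of the 34 genes, and picked after seeing the data), 1 gene was called with DHX9-837, 0 with DHX9-1271, 1 with both and 0 between hairpins. Calls over all genes fell in that fit as well. With DHX9-837 they went from 1457 higher and 1161 lower to 668 and 700, and with DHX9-1271 from 475 and 266 to 168 and 101. With both they went from 1367 and 896 to 638 and 540, and between hairpins from 117 and 203 to 39 and 65. The comparisons with control share the same 3 control arrays, and the comparison between hairpins uses the same hairpin arrays.

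**Figure D4:**
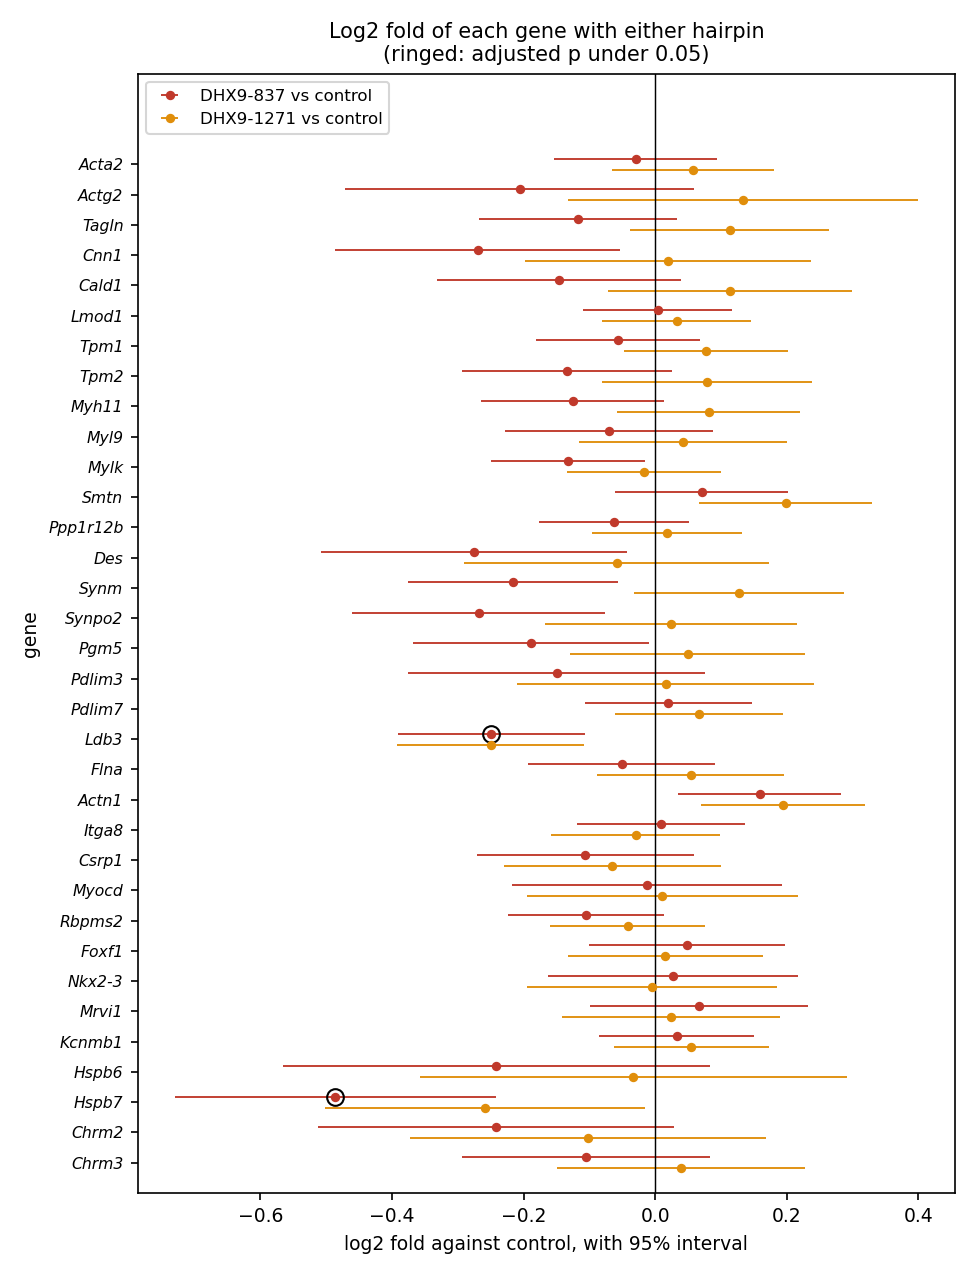
Log2 fold of each of the 34 genes with DHX9-837 against control (red) and with DHX9-1271 against control (orange), with 95% intervals from limma; rings mark an adjusted p under 0.05. Ldb3 and Hspb7 are ringed for DHX9-837, and for most genes the red point lies to the left of the orange one.

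Among actin and actin-binding genes, none of the 8 was called by limma in any comparison. At an unadjusted p under 0.05 there were 1 with DHX9-837, 0 with DHX9-1271, 0 with both and 6 between the hairpins, where 30.1%, 20.5%, 29% and 14.3% of all genes had such a p. Acta2, the alpha-actin of smooth muscle and the marker most used for it, was at 11.93, 11.97 and 11.86 in DHX9-837 arrays, 11.96, 12.06 and 11.998 in DHX9-1271 arrays and 11.90, 12.03 and 11.92 in control arrays. All 9 values lay within 0.19 of each other and the groups overlapped, with a log2 fold of -0.030 with DHX9-837 (95% interval -0.15 to 0.094) and 0.057 with DHX9-1271 (-0.066 to 0.18). Actg2, the gamma-actin of visceral smooth muscle, was at 10.99, 11.16 and 10.82 in DHX9-837 arrays, 11.28, 11.38 and 11.34 in DHX9-1271 arrays and 11.01, 11.45 and 11.14 in control arrays. Control replicate 2 had the highest level of the 9 and DHX9-837 replicate 3 the lowest. Every DHX9-837 array lay below every DHX9-1271 array, a log2 difference of -0.34 (SE 0.12, adjusted p = 0.215) that did not pass the test. Because actin genes are alike in sequence, probes of 1 actin can also bind another, and which probes make up each set is not given in the sources used here.

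Cnn1, which encodes calponin, an actin-binding brake on myosin, had log2 levels of 11.11, 11.20 and 10.84 in DHX9-837 arrays, 11.26, 11.43 and 11.32 in DHX9-1271 arrays and 11.23, 11.42 and 11.30 in control arrays. All DHX9-837 arrays were below all control arrays, with replicate 3 lowest, and the fold of -0.27 (SE 0.096, adjusted p = 0.0935) missed the threshold. Cald1, for the actin-binding caldesmon, was at 8.91, 8.998 and 8.82 in DHX9-837 arrays, 9.11, 9.24 and 9.16 in DHX9-1271 arrays and 8.89, 9.17 and 9.11 in control arrays. Its DHX9-837 and control arrays overlapped, while its DHX9-837 arrays lay below all DHX9-1271 arrays (-0.26, SE 0.082, adjusted p = 0.172). Tagln, for the actin cross-linker transgelin, was at 10.39, 10.51 and 10.29 in DHX9-837 arrays, 10.54, 10.68 and 10.66 in DHX9-1271 arrays and 10.46, 10.54 and 10.54 in control arrays. Its DHX9-837 arrays overlapped control (-0.12, SE 0.067) and its DHX9-1271 arrays all stood above control (0.11, SE 0.067), and neither fold was called.

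Tropomyosins lie along the actin filament. Tpm2 had levels of 9.75, 9.83 and 9.66 in DHX9-837 arrays, 9.93, 10.02 and 9.93 in DHX9-1271 arrays and 9.75, 9.96 and 9.92 in control arrays. Tpm1 stayed closer together, at 10.28, 10.32 and 10.15 in DHX9-837 arrays, 10.34, 10.41 and 10.40 in DHX9-1271 arrays and 10.27, 10.33 and 10.32 in control arrays. For both genes the DHX9-837 arrays lay below the DHX9-1271 arrays without passing the test (adjusted p = 0.197 for Tpm2 and 0.31 for Tpm1). Lmod1, for leiomodin, which starts actin filaments in smooth muscle, had the smallest range of the 34 genes (0.13 over the 9 arrays), with means of 8.08 ± 0.048, 8.11 ± 0.058 and 8.08 ± 0.035 in DHX9-837, DHX9-1271 and control arrays (SD, n = 3 each).

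None of the 5 genes of myosin and its regulation was called by limma either. At an unadjusted p under 0.05 there was 1 in each of the 4 comparisons, where 14.3% to 30.1% of all genes had such a p. Myh11, the smooth muscle myosin heavy chain, was at 11.49, 11.53 and 11.39 in DHX9-837 arrays, 11.60, 11.79 and 11.63 in DHX9-1271 arrays and 11.58, 11.61 and 11.60 in control arrays. The control arrays lay close together and the DHX9-837 arrays were all below them (-0.13, SE 0.061, adjusted p = 0.211). Myl9, which encodes the regulatory light chain, was at 11.06, 11.01 and 10.95 in DHX9-837 arrays, 11.04, 11.24 and 11.08 in DHX9-1271 arrays and 10.97, 11.16 and 11.10 in control arrays. Its groups overlapped, with a log2 fold of -0.071 with DHX9-837 (95% interval -0.23 to 0.088) and 0.042 with DHX9-1271 (-0.12 to 0.20).

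Mylk, for the light chain kinase, was at 8.33, 8.30 and 8.26 in DHX9-837 arrays, 8.38, 8.49 and 8.38 in DHX9-1271 arrays and 8.38, 8.47 and 8.45 in control arrays. The DHX9-837 arrays were all below the control arrays (-0.13, SE 0.052, adjusted p = 0.121). Smtn, for the actin-binding protein smoothelin, was at 9.45, 9.48 and 9.35 in DHX9-837 arrays, 9.49, 9.59 and 9.57 in DHX9-1271 arrays and 9.28, 9.42 and 9.36 in control arrays. Every DHX9-1271 array was above every control array (0.20, SE 0.058), but the adjusted p of 0.0963 did not pass, and with both hairpins the fold was 0.13 (SE 0.050, adjusted p = 0.114). Ppp1r12b, a targeting subunit of the phosphatase that reverses the kinase, averaged 8.15 ± 0.021 in DHX9-837, 8.23 ± 0.082 in DHX9-1271 and 8.21 ± 0.00063 in control arrays (SD, n = 3 each). Its control replicates 1 and 3 held the identical value, so this control SD is not a usual measure of spread.

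Of the 11 genes that anchor filaments at dense bodies and the membrane, 1 was called with DHX9-837, 0 with DHX9-1271, 2 with both and 1 between the hairpins, against 15.6%, 4.41%, 13.5% and 1.9% of all genes. At an unadjusted p under 0.05 there were 6, 2, 2 and 3 in the same comparisons, against 30.1%, 20.5%, 29% and 14.3% of all genes. Ldb3, which encodes a PDZ and LIM domain protein best known from the Z-disc of striated muscle, was at 6.78, 6.85 and 6.96 in DHX9-837 arrays, 6.89, 6.80 and 6.91 in DHX9-1271 arrays and 7.03, 7.16 and 7.14 in control arrays. All 6 hairpin arrays lay below all 3 control arrays, and the 2 hairpin groups overlapped. Ldb3 fell by 0.25 with DHX9-837 (SE 0.063, adjusted p = 0.0287) and with both hairpins by 0.25 (SE 0.054, adjusted p = 0.0182). With DHX9-1271 the log2 fold was -0.25 (SE 0.063), but its adjusted p of 0.0626 did not pass. The hairpins differed by 0.00059 (95% interval -0.14 to 0.14). The call with DHX9-837 ended without control replicate 2 or 3 (adjusted p = 0.0733 and 0.0768) and without DHX9-837 replicate 1 or 2 (adjusted p = 0.0892 and 0.08). For both hairpins it was lost when control replicate 2 (-0.22, adjusted p = 0.0578) or control replicate 3 (-0.23, adjusted p = 0.0597) was left out.

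Actn1, for an alpha-actinin that cross-links actin in dense bodies of smooth muscle and in many other cells, was at 10.11, 10.11 and 10.01 in DHX9-837 arrays, 10.05, 10.16 and 10.14 in DHX9-1271 arrays and 9.86, 9.98 and 9.91 in control arrays. All hairpin arrays were above all control arrays. Actn1 rose by 0.18 with both hairpins (SE 0.047, adjusted p = 0.0409), while the single-hairpin folds of 0.16 (DHX9-837, adjusted p = 0.0847) and 0.19 (DHX9-1271, adjusted p = 0.0871) did not pass. It did not pass when DHX9-837 replicate 1 or 2 was left out (adjusted p = 0.0758 and 0.0781), nor without DHX9-1271 replicate 2 or 3 (0.0851 and 0.0903) or control replicate 1 or 3 (0.135 and 0.0984).

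Desmin and synemin form the intermediate filaments of muscle. Des was at 10.78, 10.85 and 10.46 in DHX9-837 arrays, 10.88, 10.97 and 10.88 in DHX9-1271 arrays and 10.85, 11.09 and 10.96 in control arrays. DHX9-837 replicate 3 was the lowest array, and the DHX9-837 arrays were all below control (-0.27, SE 0.10, adjusted p = 0.108). Synm was at 8.01, 8.06 and 7.85 in DHX9-837 arrays, 8.25, 8.42 and 8.28 in DHX9-1271 arrays and 8.14, 8.24 and 8.19 in control arrays, with every DHX9-837 array below and every DHX9-1271 array above every control array. It was the 1 gene of the 34 called between the hairpins, lower in DHX9-837 by a log2 difference of -0.34 (SE 0.070, adjusted p = 0.0492). That call ended in each of the 9 fits that left out 1 array, with adjusted p from 0.06 to 0.155 and differences from -0.39 to -0.28. Over all genes, 117 were called higher and 203 lower between the hairpins with all arrays. Without 1 hairpin array the counts were 9 to 39 higher and 19 to 95 lower. Without 1 control array they were 74 to 125 higher and 128 to 237 lower.

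Synpo2 and Pgm5, for a phosphoglucomutase-like protein of adhesion sites, had lower mean levels in DHX9-837 than in either other group. Synpo2 was at 8.86, 8.96 and 8.68 in DHX9-837 arrays, 9.04, 9.23 and 9.10 in DHX9-1271 arrays and 8.99, 9.19 and 9.12 in control arrays, and all its DHX9-837 arrays lay below control (-0.27, SE 0.085, adjusted p = 0.0652). Pgm5 had a log2 fold of -0.19 with DHX9-837 (SE 0.079, adjusted p = 0.145) and its groups overlapped. The other 5 genes of this group were Pdlim3 and Pdlim7 (PDZ and LIM proteins), Flna (the actin cross-linker filamin A), Csrp1 (a LIM protein) and Itga8 (an integrin subunit). Their folds with DHX9-837 ran from -0.15 (Pdlim3) to 0.020 (Pdlim7) and with DHX9-1271 from -0.065 (Csrp1) to 0.067 (Pdlim7), and none was called.

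**Figure D5:**
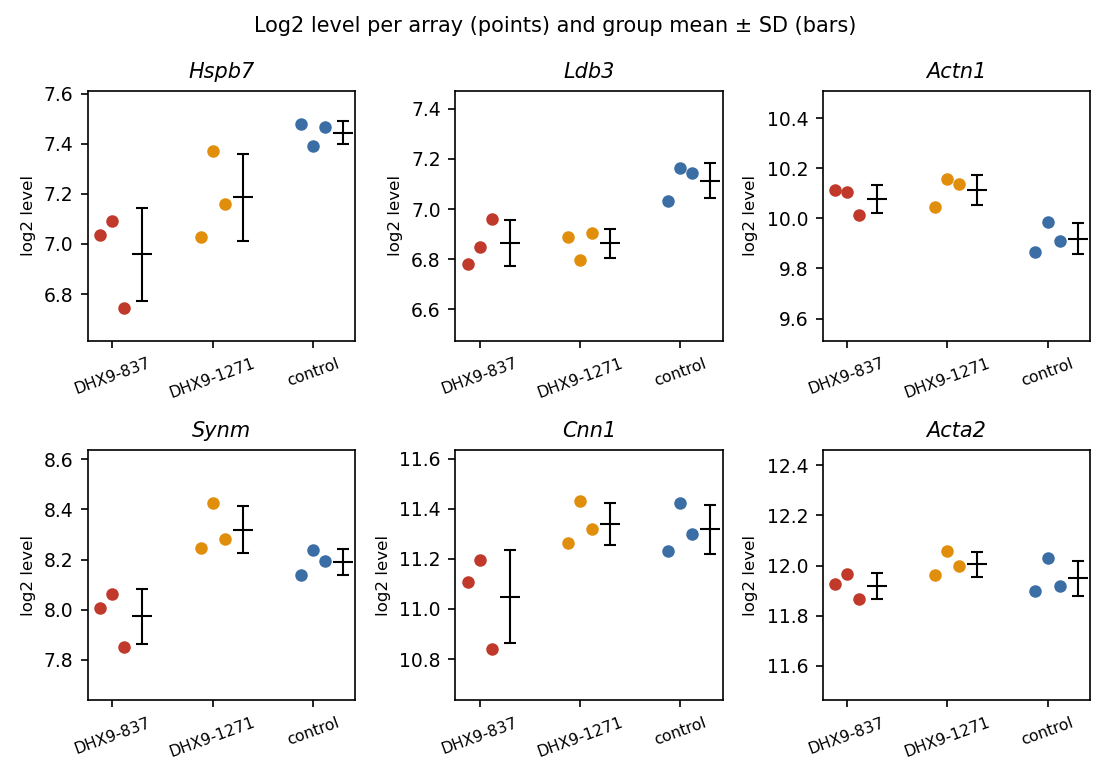
Log2 level of 6 contractile genes in each array (points) with the group mean ± SD (black bars, n = 3), each panel spanning 1 log2 unit. Hairpin arrays lie below control for Hspb7 and Ldb3 and above it for Actn1, Synm separates the hairpins, and Acta2 overlaps throughout.

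Of the 6 genes for receptors, channels and relaxation, 1 was called, lower with DHX9-837 and with both hairpins. Of all genes, 6.91% and 5.33% were called lower in these comparisons. Hspb7, a small heat shock protein best known from heart and blood vessels, was at 7.04, 7.09 and 6.75 in DHX9-837 arrays, 7.03, 7.37 and 7.16 in DHX9-1271 arrays and 7.48, 7.39 and 7.47 in control arrays. Every hairpin array was below every control array, DHX9-837 replicate 3 was lowest, and DHX9-1271 replicate 2 was closest to control. Hspb7 fell by 0.49 with DHX9-837 (SE 0.11, adjusted p = 0.0167) and by 0.37 with both hairpins (SE 0.093, adjusted p = 0.0318). With DHX9-1271 the log2 fold was -0.26 (SE 0.11, adjusted p = 0.219), and the difference between hairpins was not called (-0.23, 95% interval -0.47 to 0.016). The DHX9-837 call ended without control replicate 1 (-0.47, adjusted p = 0.0539). The call with both hairpins ended without any 1 of the control arrays (adjusted p = 0.102, 0.0583 and 0.0883) and without DHX9-1271 replicate 1 or 3 (adjusted p = 0.0552 and 0.0696).

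Hspb6, a related small heat shock protein linked to muscle relaxation, had one of the widest spreads, at 9.45, 9.50 and 9.25 in DHX9-837 arrays, 9.73, 9.41 and 9.69 in DHX9-1271 arrays and 9.43, 9.96 and 9.53 in control arrays. Its control replicate 2 was the highest of the 9 arrays, the groups overlapped, and the log2 fold with DHX9-837 was -0.24 (95% interval -0.57 to 0.083). The muscarinic receptor genes Chrm2 and Chrm3 carry the acetylcholine signal. Chrm2 was at 8.09, 8.09 and 7.94 in DHX9-837 arrays, 7.93, 8.44 and 8.17 in DHX9-1271 arrays and 8.20, 8.24 and 8.40 in control arrays, and its DHX9-837 arrays were all below control (-0.24, SE 0.12, adjusted p = 0.214). Chrm3, whose mean of 5.98 was the lowest of the 34, had log2 folds of -0.10 with DHX9-837 and 0.039 with DHX9-1271. Kcnmb1 (the beta subunit of the calcium-activated potassium channel) and Mrvi1 (a partner of cyclic GMP-dependent protein kinase) had folds between 0.024 and 0.067 with either hairpin.

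Of the 4 regulator genes 0 were called by limma in any comparison, and 0 had an unadjusted p under 0.05. Myocd, the co-activator myocardin, was at 7.81, 7.96 and 7.65 in DHX9-837 arrays, 7.76, 7.89 and 7.85 in DHX9-1271 arrays and 7.67, 7.91 and 7.88 in control arrays. The groups overlapped, and the log2 fold with both hairpins was -0.00039 (95% interval -0.18 to 0.18). Within groups Myocd followed the other contractile genes closely (correlation 0.95 with group means removed). Rbpms2, an RNA-binding protein gene of gut muscle, had folds of -0.10 (DHX9-837) and -0.041 (DHX9-1271). Foxf1, a transcription factor of gut mesenchyme, had 0.049 (DHX9-837) and 0.016 (DHX9-1271). Nkx2-3, another such factor, was at 6.89, 6.93 and 6.89 in DHX9-837 arrays, 6.97, 6.89 and 6.75 in DHX9-1271 arrays and 6.73, 7.04 and 6.86 in control arrays. Its groups overlapped, with control replicate 2 highest and control replicate 1 lowest.

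Genes of the same pathways outside the list were followed for comparison. Of 14 regulators around serum response factor, 2 were lower with DHX9-837 and 0 higher, where 6.91% of all genes were lower and 8.67% higher. With DHX9-1271, 0 of them were called by limma (0 at an unadjusted p under 0.05), where 4.41% of all genes were called. Srf itself was at 8.47, 8.37 and 8.57 in DHX9-837 arrays, 8.68, 8.65 and 8.65 in DHX9-1271 arrays and 8.68, 8.71 and 8.66 in control arrays. All DHX9-837 arrays were below all others, a fall of 0.21 against control (SE 0.055, adjusted p = 0.0336), whereas DHX9-1271 arrays overlapped control. Klf4, a zinc finger factor known to oppose myocardin in smooth muscle and also abundant in colon epithelium, fell by 0.44 with DHX9-837 (SE 0.062, adjusted p = 0.00254) and was lower in DHX9-837 than in DHX9-1271 (-0.32, adjusted p = 0.041). With both hairpins Klf4 fell by 0.27 (SE 0.054, adjusted p = 0.0119), and every hairpin array lay below every control array. The log2 fold with DHX9-1271 was -0.11 (adjusted p = 0.341), not called.

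Of 22 signalling genes of contraction, 3 rose with both hairpins, where 8.13% of all genes rose, and 0 fell. They were Rhoa (0.20, SE 0.047, adjusted p = 0.0243), a small GTPase that promotes contraction, Rock1 (0.16, SE 0.040, adjusted p = 0.0339), a kinase that acts downstream of Rhoa, and Rgs2 (0.28, SE 0.077, adjusted p = 0.0446), which limits G protein signals. With DHX9-837 alone, Rhoa (0.22, adjusted p = 0.0271) was the 1 gene called. Of 27 other cytoskeleton and adhesion genes, Cnn2, the calponin of non-muscle cells, rose with both hairpins (0.26, SE 0.052, adjusted p = 0.0127) and Tpm4 rose with DHX9-837 (0.33, SE 0.092, adjusted p = 0.0435). None fell. These genes are expressed in many cells of the gut wall besides muscle.

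Markers of other cell types differed between the groups. The mean log2 level of 12 epithelial genes ran from 11.41 to 11.45 in DHX9-837, 11.38 to 11.42 in DHX9-1271 and 11.29 to 11.35 in control arrays. That of 8 endothelial genes ran from 7.62 to 7.65 in DHX9-837, 7.63 to 7.71 in DHX9-1271 and 7.46 to 7.52 in control arrays. Fibroblast genes (10) ran from 8.997 to 9.07 in DHX9-837, 9.05 to 9.15 in DHX9-1271 and 8.71 to 9.01 in control arrays. The means of the epithelial and endothelial lists were higher in every hairpin array than in every control array, whereas the means of the contractile genes, at 8.93 to 9.07 in DHX9-837, 9.09 to 9.19 in DHX9-1271 and 9.03 to 9.18 in control arrays, overlapped control. The epithelial genes did not move together. The keratin genes Krt8, Krt18 and Krt19 were higher in every hairpin array than in every control array. Vil1 was lower in every hairpin array than in every control array. Krt18 averaged 9.81 in DHX9-837, 9.48 in DHX9-1271 and 8.99 in control arrays. The median log2 fold of the epithelial list with both hairpins was 0.032, so its mean cannot be read as the amount of epithelium. With the epithelial mean as a covariate, the median log2 fold of the contractile genes was -0.21 with DHX9-837 and -0.055 with DHX9-1271, where all genes tested had 0.0028 and 0.0072. With this covariate limma called 0 of the contractile genes, but it also called few of all 16808 genes, 6 higher and 12 lower with DHX9-837 and 1 higher and 7 lower with DHX9-1271. The folds with DHX9-837 were then -0.42 for Ldb3 and -0.38 for Hspb7. The epithelial mean was itself higher in every hairpin array than in every control array. The fit therefore cannot separate it from the hairpins. The part of epithelial, endothelial and fibroblast RNA in the results was not tested.

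Among these markers, 4 of 8 endothelial genes rose with both hairpins, where 8.13% of all genes rose, with Emcn, for the surface glycoprotein endomucin, up by 0.35 (SE 0.047, adjusted p = 0.00257). Of the fibroblast genes 3 of 10 rose, among them Dcn, for the matrix proteoglycan decorin (0.38, SE 0.081, adjusted p = 0.0164). Of the epithelial genes 2 of 12 rose, Krt18 (0.66, SE 0.051, adjusted p = 0.000244) and Krt19 (0.24, SE 0.048, adjusted p = 0.0139), both keratins of simple epithelia. The median log2 fold with both hairpins was 0.20 for the endothelial, 0.20 for the fibroblast and 0.032 for the epithelial list. Vil1, for the microvillus protein villin, averaged 10.98 in DHX9-837, 11.01 in DHX9-1271 and 11.12 in control arrays, with every hairpin array below every control array (log2 fold -0.13 with both, adjusted p = 0.137). None of these 3 lists had a gene that fell with both hairpins, where 5.33% of all genes fell.

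Genes of nerve and pacemaker cells, which lie within the muscle layers, gave few calls. None of the 6 genes of interstitial cells of Cajal, the pacemaker cells, was called by limma. At an unadjusted p under 0.05 there were 2 with DHX9-1271, 0 with DHX9-837, 1 with both and 1 between the hairpins. Of all genes, 20.5%, 30.1%, 29% and 14.3% had such a p. The list means were 7.08 to 7.18 in DHX9-837, 7.19 to 7.24 in DHX9-1271 and 6.99 to 7.09 in control arrays. Every DHX9-1271 array thus lay above all others, while DHX9-837 overlapped control. Of 9 enteric neuron genes tested, limma called Vip, for a peptide that relaxes gut muscle, and not the others. Vip rose with DHX9-1271 (0.46, adjusted p = 0.0172), where 2.83% of all genes rose. It was lower in DHX9-837 than in DHX9-1271 (-0.44, adjusted p = 0.0329), where 1.21% of all genes were lower. Of 4 glial genes 0 were called by limma (at an unadjusted p under 0.05, 1 with DHX9-837 and 1 with both hairpins). Of 8 genes of pericytes and vascular muscle, Pdgfrb rose with DHX9-837 (0.28, adjusted p = 0.0106), where 8.67% of all genes rose and 6.91% fell. All DHX9-1271 arrays held the identical Pdgfrb value (8.16). Of 6 mesothelial genes only Krt7, also an epithelial keratin, was called. Of all genes, 4.41% were called with DHX9-1271, 15.6% with DHX9-837 and 13.5% with both. Among 4 adipocyte genes Fabp4 and Cidec rose and Lipe fell with DHX9-837, against the same 8.67% and 6.91% of all genes. With the epithelial covariate the folds of Fabp4 and Cidec turned to -0.26 and -0.083, neither called.

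Most striated muscle genes were low, but the skeletal muscle genes Acta1 and Ckm had mean levels at the 58.4 and 56.8 percentiles of the genes tested. Of 13 skeletal muscle genes 5 were under the level filter of 5.28, among them Myh1 and Mylpf at 3.26 to 4.23. Limma called 0 of the 8 tested. At an unadjusted p under 0.05 there were 1 with DHX9-1271, 2 with DHX9-837, 1 with both and 2 between hairpins. Of 5 heart muscle genes 0 were called by limma and 0 had an unadjusted p under 0.05. Acta1, the skeletal muscle alpha-actin, was singled out after its values were seen. It was at 7.68, 7.66 and 8.04 in DHX9-837 arrays, 7.49, 6.69 and 7.41 in DHX9-1271 arrays and 7.17, 7.47 and 7.25 in control arrays. DHX9-837 arrays were all above both other groups, and DHX9-837 replicate 3, the array lowest in most contractile genes, had the highest level, while DHX9-1271 replicate 2 had the lowest. The log2 folds of Acta1 were 0.50 with DHX9-837 (SE 0.20, adjusted p = 0.137) and 0.60 between hairpins (SE 0.20, adjusted p = 0.206), neither called.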

How the data were processed

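RNA of large intestine of 9 mouse samples was hybridised to 1-colour arrays. The authors deposited log2 expression values, made with RMA in oligo 1.30.0 under R 3.1.1, per the submitters' processing notes. Which probes make up a set, and on what build, is not given in the sources used here. Of 24973 probe sets, 24015 had 1 gene symbol and 958 were not listed. For the few genes with several probe sets 1 was kept, leaving 24011 genes. Genes whose mean was under the 30th percentile (5.28) were removed, leaving 16808. The deposited values were not normalised again.

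limma 3.58.1 in R 4.3.3 was fitted to all 9 arrays with the 3 groups as terms, with Benjamini-Hochberg adjustment over all genes tested and a threshold of 0.05. The fit was tested on simulated data. The comparisons were each hairpin and both together against control, and DHX9-837 against DHX9-1271. Alternatives changed the filter, scaling, moderation, arrays and covariates. The 34 genes, the other gene lists and the tests were chosen with earlier results of these data known. All 34 genes could be named, with values by array for those called, for 12 core genes and for those with the largest range in each role. From the other lists, called genes and those with the smallest p could be named, and 10 other genes by similarity of profile. Some genes of the other lists were not analysed here.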

Additional observations from a re-analysis of the deposited data

Results flagged for a closer look

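Synm, for the intermediate filament protein synemin, differed between the hairpins. Its log2 level was lower in DHX9-837 than in DHX9-1271 by a difference of -0.34 (limma, adjusted p = 0.0492), and all 3 DHX9-837 arrays lay below control while all 3 DHX9-1271 arrays lay above it. Neither hairpin differed from control past the threshold (-0.22, adjusted p = 0.0724 with DHX9-837, and 0.13, adjusted p = 0.343 with DHX9-1271).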

How the results depend on the processing

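The direction of the 6 calls on contractile genes held under every alternative run, but the number called did not. With DHX9-837 against control, 2 genes were called; 4 were called with the filter at the median gene, with a trend in the moderation, with the replicate block and with the other muscle genes as a covariate, 1 with no filter, with the compared arrays alone and without control replicate 1 together with DHX9-837 replicate 3 (chosen after seeing the data), and 0 with a 1.5-fold limit or the epithelial covariate. Leaving out 1 array gave 1 (without any 1 control array, DHX9-837 replicate 1 or replicate 2) to 2. The calls over all genes moved with the setting as well. With DHX9-837 the main fit called 1457 of 16808 genes higher and 1161 lower. These became 1633 and 1322 of 12006 with the filter at the median gene, and 1624 and 1283 with the trend. They were 1283 and 1001 with the block, 671 and 658 with the muscle covariate, and 24 and 28 with the 1.5-fold limit. With DHX9-1271 against control, 0 became 1 with the filter at the median gene, cyclic loess or the trend. Of all genes, 475 were called higher and 266 lower in its main fit. In these 3 settings the counts were 643 and 329 (of 12006), 422 and 366, and 656 and 344. With both hairpins, 3 became 1 with no filter, array weights or without those 2 arrays, and 0 with the 1.5-fold limit or either covariate. Leaving out 1 array gave 0 to 3, with 0 without control replicate 3. Over all genes, 1367 higher and 896 lower in the main fit became 971 and 688 of 24011 with no filter. They became 1048 and 702 with array weights and 11 and 13 with the limit. The muscle covariate left 218 and 219, and the epithelial covariate 4 and 10. Between hairpins, 1 became 0 with no filter, centring, cyclic loess, the compared arrays alone, the block, the limit or either covariate. It also became 0 without those 2 arrays and without any single array. Over all genes, 117 higher and 203 lower in the main fit became 53 and 87 of 24011 with no filter. They became 178 and 221 with cyclic loess, and 1 and 0 with the limit. The median log2 fold was -0.21 with the epithelial covariate for DHX9-837, -0.074 and -0.055 with the muscle and epithelial covariates for DHX9-1271, and -0.12 with each for both hairpins. Leaving out 1 array, it ran from -0.14 to -0.068 with DHX9-837, 0.0034 to 0.079 with DHX9-1271, -0.072 to 0.018 with both and -0.15 to -0.068 between hairpins. Krt8 (-0.010), Fabp4 (-0.26) and Cidec (-0.083) turned direction with DHX9-837 under the epithelial covariate, whose mean includes Krt8 itself. The cause of these changes was not tested. Correlations of deviations between arrays of different groups ran from -0.37 to 0.26 for the same replicate number. They ran from -0.44 to 0.39 for different numbers. These overlapping ranges cannot decide whether the replicate number pairs the arrays. Replicate 2 was highest for most contractile genes in all 3 groups, and an effect of replicate number on these genes was not tested. With the number as a block, Synpo2 and Pgm5 passed with DHX9-837 (adjusted p = 0.0406 and 0.0494). Actn1 then did not pass with both hairpins (adjusted p = 0.0564). Small folds, 3 arrays a group and 10 genes with tied values limit the precision.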
